A study of Mus musculus with 36 samples.

Results

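Complement is a set of plasma and tissue proteins that tag microbes, dead cells and damaged matrix and call in white blood cells. The classical route starts when C1q, a protein built of 3 chains, binds its target, and leads through C4 and C2 to the cleavage of C3, while factor B amplifies that cleavage in the alternative route. The small fragments C3a and C5a released on the way act on receptors of myeloid cells, and C1 inhibitor restrains the start of the cascade. In joints, synovial macrophages and fibroblasts are known to make complement components, and complement activity is a known feature of injured and arthritic joints.

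The genes described here are 9 complement components and receptors among the 55291 genes of the count table, matched by gene symbol: the C1q chains C1qa, C1qb and C1qc, the components C3, C4b and Cfb, the inhibitor Serping1, and the receptors C3ar1 and C5ar1. They were picked by name as genes of the complement system, with earlier results of these data known. They were read in 9 of the 36 samples of a mouse series on early treatment of knee injury, as total RNA of knee joint tissue depleted of ribosomal RNA. Each of the 3 groups had 3 biological replicates: mice with injury of the anterior cruciate ligament (ACL) given a protein kinase C (PKC) inhibitor, mice with the same injury given 0.9% saline as vehicle, and sham mice without ACL injury. Tissue was taken at 24 h after the injury or the sham procedure in every group. The labels used here name neither the inhibitor nor the mouse strain, genotype, sex or age, and no group received the inhibitor without injury. Libraries were assigned to groups by the names heading the columns, and the counting command kept in the table lists the alignments in a different order from those columns, so every group value below depends on the column names being right.

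The libraries held 124 to 202 M counts, but 91.2% to 98.2% of these were of 7SL RNA, a small noncoding RNA that takes part in protein export, and the 9 complement genes together held 1003 to 5500 counts per library. Inhibitor libraries 1 and 2 stood apart with the lowest 7SL shares, 91.5% and 91.2%, and values that moved most without them are also given that way. Without both, 1 inhibitor library is left, and the test then assumes that it varies like the libraries of the other groups. All 7 joint tissue markers were counted in every library, from Col1a1 at 18360 to 107800 normalised counts to Acan, the core protein of a cartilage proteoglycan, at 95.3 to 879. The summed level of 10 skeletal muscle markers was 105200 normalised counts in inhibitor library 1 and 5571 to 45500 in the other libraries. In bulk tissue, fewer cells of a type and less RNA per cell cannot be told apart.

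Normalised counts bring the libraries to 1 common size: each count is divided by the size of its library after TMM scaling (edgeR's trimmed mean of M values) and multiplied by the mean of the 9 sizes. The TMM factors were 1.73 and 3.64 in inhibitor libraries 1 and 2, against 0.633 to 1.01 in the other libraries, so the inhibitor values depend on this scaling. Values for a group are mean ± SD over its 3 libraries. Adjusted p-values are from edgeR's quasi-likelihood test on all 9 libraries, two-sided, with Benjamini-Hochberg adjustment over the 13823 genes tested and a threshold of 0.05, and each log2 fold change is given with its standard error (SE). All 9 complement genes passed the filter on low counts. C3ar1 passed it through the injured knees, since its 12, 10 and 5 raw counts in sham knees would not have met it alone.

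The receptor for C3a stood out. C3ar1 was 8.08-fold higher in knees with ACL injury and PKC inhibitor than in sham knees, and it was the only 1 of the 9 genes past the threshold in any comparison. In injured knees given vehicle it was 4.89-fold above sham, just short of the threshold. C5ar1 lay about 2-fold above sham in both injured groups, and C3 lay below sham in the vehicle group, without passing the test. The C1q chains, C4b, Cfb and Serping1 passed in no comparison.

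**Figure D1:**
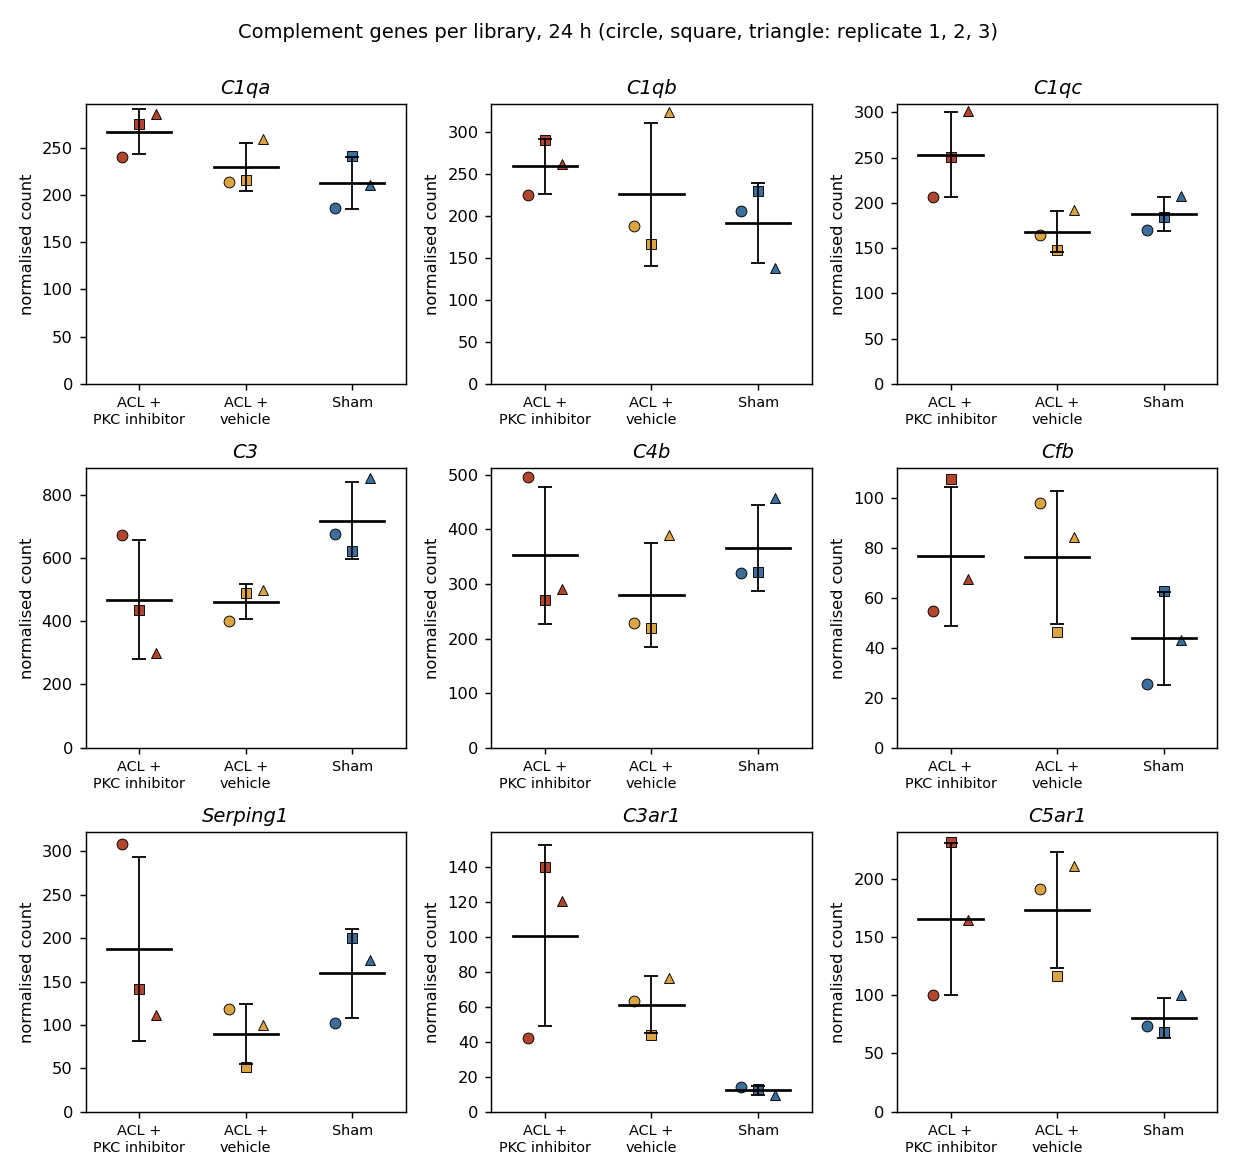
Normalised counts of the 9 complement genes (vertical axes, each from 0) in injured knees with PKC inhibitor, injured knees with vehicle and sham knees at 24 h; circle, square and triangle are replicates 1, 2 and 3, and bars are mean ± SD of 3 libraries. All 6 libraries of injured knees lie above the 3 sham libraries for C3ar1 and C5ar1, and the 3 vehicle libraries lie below the sham libraries for C3.

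C1qa, C1qb and C1qc encode the 3 chains of C1q, the recognition protein of the classical route, which in tissues is made mainly by macrophages. The genes lie side by side on the minus strand of chromosome 4 of mm10, C1qb at chr4:136880129-136886187, C1qc at chr4:136889804-136893065 and C1qa at chr4:136895917-136898803. C1qa had 241, 276 and 286 normalised counts with inhibitor, 214, 216 and 259 with vehicle and 186, 241 and 211 in sham knees. C1qb had 225, 289.8 and 262 normalised counts with inhibitor, 188, 166 and 323 with vehicle and 206, 229 and 138 in sham knees. C1qc had 207, 251 and 301 normalised counts with inhibitor, 164.5, 147 and 192 with vehicle and 169.8, 185 and 207 in sham knees. The 3 groups overlapped for each chain, except that every inhibitor library lay above every vehicle library for C1qc.

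No C1q chain passed the test after injury. For vehicle against sham, the log2 fold changes were 0.11 (SE 0.20) for C1qa, 0.24 (SE 0.27) for C1qb and -0.15 (SE 0.21) for C1qc, with adjusted p-values of 0.933, 0.878 and 0.908. The 95% intervals on the log2 scale ran from -0.30 to 0.53 for C1qa, from -0.33 to 0.80 for C1qb and from -0.60 to 0.30 for C1qc. Between inhibitor and vehicle the widest difference was that of C1qc, at 253 ± 47.1 normalised counts with inhibitor and 168 ± 22.7 with vehicle (SD, n = 3 each). Its log2 fold change was 0.59 (SE 0.21), with an adjusted p of 0.216, and those of C1qa and C1qb were 0.22 and 0.20, with adjusted p-values of 0.657 and 0.785. Against sham, the inhibitor group had log2 fold changes of 0.33 for C1qa, 0.43 for C1qb and 0.43 for C1qc, with adjusted p-values of 0.403, 0.419 and 0.288.

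Because C1q is mainly a macrophage product, its level was also set beside 14 macrophage and monocyte markers in the same library, as the mean log2 CPM (counts scaled to library size, on a log scale) of the 3 chains minus that of the markers. The difference was 1.64, 1.51 and 1.59 with inhibitor, 1.19, 1.43 and 1.37 with vehicle and 1.90, 1.85 and 1.47 in sham knees. Every vehicle library lay below every inhibitor and every sham library on this scale. The group means were 1.58 ± 0.06 with inhibitor, 1.33 ± 0.13 with vehicle and 1.74 ± 0.24 in sham knees (SD, n = 3 each), so vehicle minus sham was -0.41 and inhibitor minus vehicle was 0.25. With only Csf1r and Adgre1, 2 markers of mature macrophages, in place of the list, these differences were -0.19 and 0.15, and the groups overlapped. The scale moves with the markers as well as with the C1q chains. For vehicle against sham the chains had log2 fold changes of 0.11, 0.24 and -0.15. Of the 14 markers, 10 had positive values in that comparison and 4 negative ones, with a median of 0.29.

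C4b encodes complement C4, which is cleaved after C1q binds, and lies at chr17:34728380-34743882 on the minus strand of mm10. It had 496, 270 and 291 normalised counts with inhibitor, 229, 219 and 389 with vehicle and 319.8, 321 and 456 in sham knees. The groups overlapped, and inhibitor library 1 was the highest of all 9. The log2 fold changes were -0.39 (SE 0.28) for vehicle against sham, 0.34 (SE 0.28) for inhibitor against vehicle and -0.05 (SE 0.28) for inhibitor against sham, with adjusted p-values of 0.779, 0.634 and 0.947. Without inhibitor library 1, inhibitor against vehicle came to 0.01 and inhibitor against sham to -0.38. C4b and its near-identical neighbour C4a can share reads, since reads that map to several places were counted in full at each. C4a held 0.101 to 0.335 counts for each count of C4b, so the level of C4b is uncertain to that extent.

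C3, the central component that all routes cleave, lies at chr17:57203970-57228136 on the minus strand of mm10. It had 671, 435 and 299.8 normalised counts with inhibitor, 400.4, 488 and 498 with vehicle and 676, 621 and 854 in sham knees. The 3 vehicle libraries lay below all 3 sham libraries, and the inhibitor libraries spread from the lowest value of all to within the sham range. C3 averaged 469 ± 188 normalised counts with inhibitor, 462 ± 53.8 with vehicle and 717 ± 122 in sham knees (SD, n = 3 each). The log2 fold change was -0.63 (SE 0.26) for vehicle against sham, with an adjusted p of 0.473, and -0.61 (SE 0.25) for inhibitor against sham, with an adjusted p of 0.214. Between inhibitor and vehicle it was 0.02, with a 95% interval from -0.52 to 0.56. Without inhibitor library 1, the highest of its group, inhibitor against sham came to -0.95 with an adjusted p of 0.0141, and with inhibitor library 3, the lowest of all 9, as the only one of its group to -1.24. Over all fits with 1 library left out, inhibitor against sham ran from -0.95 to -0.38, with adjusted p-values from 0.0141 to 0.493.

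Cfb encodes factor B, which joins cleaved C3 in the enzyme of the alternative route, and lies at chr17:34856374-34862518 on the minus strand of mm10. It had 54.8, 108 and 67.5 normalised counts with inhibitor, 98.03, 46.4 and 84.6 with vehicle and 25.6, 62.9 and 43.4 in sham knees. The groups overlapped in each comparison, with the lowest value in a sham library and the highest in an inhibitor library. The log2 fold change was 0.79 (SE 0.39) for vehicle against sham and 0.82 (SE 0.38) for inhibitor against sham, with adjusted p-values of 0.629 and 0.277. Between inhibitor and vehicle it was 0.03, with a 95% interval from -0.76 to 0.82. The gene model Gm20547 covers 79.5% of the exon bases of Cfb on the same strand, and reads over both were counted for each, so Cfb cannot be told apart from it here.

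Liver is the main source of the plasma pool of C3, C4 and factor B, so liver transcripts were read beside them. The summed level of 6 hepatocyte markers was 8.57 to 16.9 normalised counts with inhibitor, 21.4 to 42.3 with vehicle and 31.5 to 62.2 in sham knees. Fgb, which encodes a fibrinogen chain, did not exceed 1.36 normalised counts in any library, and Alb, the albumin gene, ran from 3.12 to 24.4. Serpina1a, which encodes alpha-1-antitrypsin and was the highest of the list, ran from 3.12 to 43.4. The summed level was below C3 and C4b in every library, but it was 58.1 and 62.2 in sham libraries 1 and 3, above Cfb at 25.6 and 43.4 there. None of these levels was divided by gene length, so their order depends partly on the lengths of the genes. The part of liver transcripts in the values of C3, C4b and Cfb was not tested.

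Serping1 encodes C1 inhibitor, a serine protease inhibitor that blocks C1r and C1s, and lies at chr2:84765387-84775444 on the minus strand of mm10. It had 309, 142 and 112 normalised counts with inhibitor, 118, 51.1 and 99.6 with vehicle and 102, 201 and 175 in sham knees. The groups overlapped, and inhibitor library 1 stood apart as the highest of all 9. The log2 fold change was 1.08 (SE 0.44) for inhibitor against vehicle and -0.84 (SE 0.44) for vehicle against sham, with adjusted p-values of 0.315 and 0.658. For inhibitor against sham it was 0.24 (SE 0.42), with an adjusted p of 0.813. Without inhibitor library 1, inhibitor against vehicle came to 0.53, and without libraries 1 and 2 to 0.33. That library also held the highest summed muscle markers and the highest summed adipocyte markers, at 2226 normalised counts against 394 to 1088 in the others, and their part in the Serping1 value was not tested.

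C3ar1 and C5ar1 encode the G protein-coupled receptors for C3a and C5a, carried by macrophages, monocytes and, for C5ar1 above all, neutrophils. Both genes lie on minus strands of mm10, C3ar1 at chr6:122847138-122856161 and C5ar1 at chr7:16246743-16259540. The 250 bases before the RefSeq start of each gene are shown because these receptors carry the largest differences from sham among the 9 genes. They are from RefSeq on GRCm38.p6, at chr6:122856158-122856407 for C3ar1 and chr7:16259339-16259588 for C5ar1, on the minus strand and written 5′ to 3′. The RefSeq starts, at 122856157 and 16259338, lie inside the gene models used for counting, so that 4 bases of the C3ar1 stretch and 202 of the C5ar1 stretch fall within those models.

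C3ar1: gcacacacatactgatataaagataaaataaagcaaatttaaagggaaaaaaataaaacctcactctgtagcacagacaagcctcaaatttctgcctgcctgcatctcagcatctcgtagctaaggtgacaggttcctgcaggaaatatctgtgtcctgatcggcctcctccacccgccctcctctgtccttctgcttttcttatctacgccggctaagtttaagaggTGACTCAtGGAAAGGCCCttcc

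C5ar1: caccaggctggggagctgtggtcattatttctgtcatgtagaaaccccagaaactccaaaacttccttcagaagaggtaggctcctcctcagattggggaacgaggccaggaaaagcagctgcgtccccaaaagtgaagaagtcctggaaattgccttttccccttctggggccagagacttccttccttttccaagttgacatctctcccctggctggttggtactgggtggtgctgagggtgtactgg

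Capitals in the C3ar1 stretch mark matches to 2 of 5 motifs searched on both strands. The AP-1 motif TGANTCA matched as TGACTCA, 22 to 16 bases before the start. The NF-kB motif matched on the other strand as GGAAAGGCCC, 14 to 5 bases before the start, with no overlap between the matches. The C5ar1 stretch held no match to these, to the STAT motif TTCNNNGAA, to the interferon motif known as ISRE or to the PU.1 motif GAGGAAG. The stretch before the RefSeq start of C1qc, of which 151 bases lie inside the counted gene, held 1 match, to PU.1 on the other strand, and those before C1qb and C3 held none. Of 32851 promoters of the same length, 6.75% held the AP-1 motif, 4.11% the NF-kB motif, 7.02% the STAT motif, 2.98% the ISRE and 10.6% the PU.1 motif. Such a match describes letters in a window and shows no binding.

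C3ar1 had 42.0, 139.8 and 121 normalised counts with inhibitor, 63.1, 44.0 and 76.4 with vehicle and 13.9, 13.1 and 9.43 in sham knees. All 6 injured libraries lay above all 3 sham libraries, and the inhibitor and vehicle libraries overlapped, inhibitor library 1 being the lowest of the injured knees. The means were 101 ± 51.9 with inhibitor, 61.2 ± 16.3 with vehicle and 12.2 ± 2.41 in sham knees (SD, n = 3 each), and they rest on 508, 131 and 27 raw counts in all. C3ar1 passed the filter on low counts through injured libraries, so being tested already favoured a higher level there than in sham knees. Inhibitor against sham gave a log2 fold change of 3.02 (SE 0.46), with a 95% interval from 2.04 to 3.99 and an adjusted p of 0.00376. Without inhibitor library 1 it was 3.39, with an adjusted p of 1.17e-05, and with inhibitor library 3 as the only one of its group it was 3.28. Vehicle against sham gave 2.29 (SE 0.47), with an interval from 1.30 to 3.28 and an adjusted p of 0.0565. This value missed the threshold by little and its call turned on the setting: with DESeq2 the adjusted p was 0.0032, and in a fit of the vehicle and sham libraries alone it was 0.0025. Other settings went the other way: it was 0.0943 with a block for replicate number. Leaving out any 1 vehicle or sham library gave 0.0701 to 0.304. Inhibitor against vehicle gave 0.73 (SE 0.39), with an interval from -0.10 to 1.56 and an adjusted p of 0.445.

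C5ar1 had 100.5, 231 and 165 normalised counts with inhibitor, 191, 116.5 and 211 with vehicle and 73.2, 68.2 and 100.0 in sham knees. The injured libraries again all lay above the sham libraries, by a small margin between inhibitor library 1 and sham library 3. The means were 166 ± 65.4 with inhibitor, 173 ± 49.98 with vehicle and 80.5 ± 17.1 in sham knees (SD, n = 3 each). Vehicle against sham gave a log2 fold change of 1.11 (SE 0.32) and inhibitor against sham gave 1.06 (SE 0.31), with adjusted p-values of 0.226 and 0.0743. Inhibitor against vehicle gave -0.05 (SE 0.30), with an interval from -0.70 to 0.59. Without inhibitor library 1, vehicle against sham had an adjusted p of 0.0254 and inhibitor against sham had a log2 fold change of 1.33 with an adjusted p of 0.00537. These were the lowest adjusted p-values with 1 library left out, and the highest were 0.668 and 0.263. The log2 fold change for inhibitor against sham then ran from 0.72 to 1.33.

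**Figure D2:**
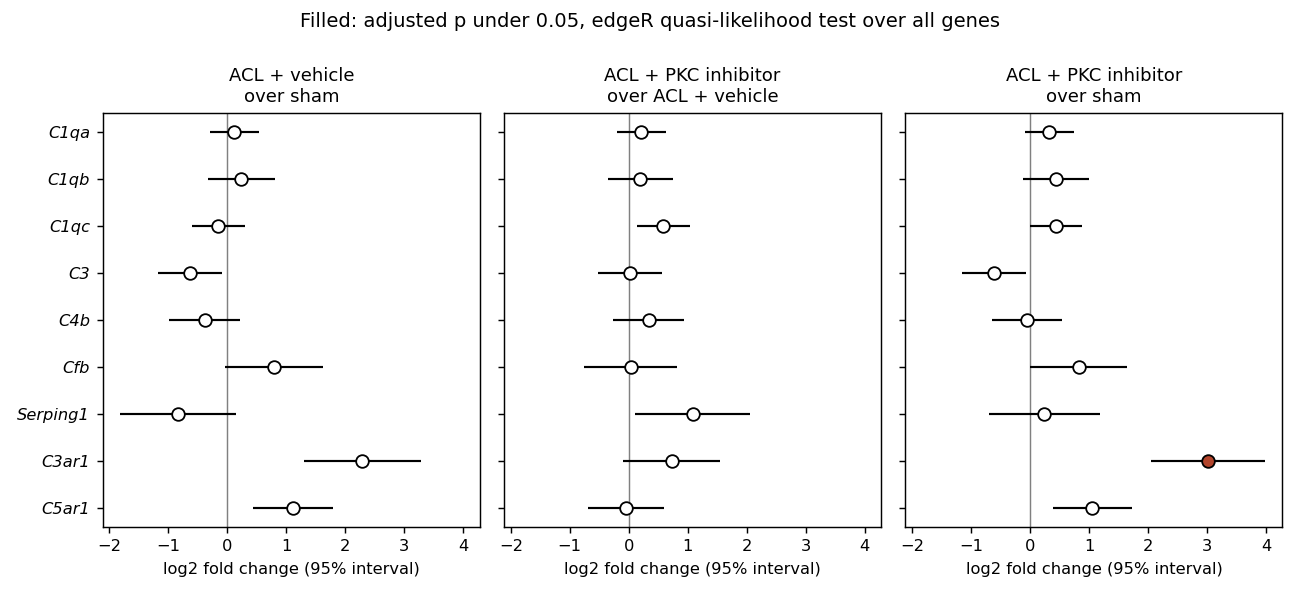
Log2 fold change of each complement gene (points) with its 95% interval (lines, horizontal axis) for injured knees with vehicle over sham, injured knees with inhibitor over vehicle, and injured knees with inhibitor over sham; filled points have an adjusted p under 0.05 in edgeR's quasi-likelihood test. The only filled point is C3ar1 with inhibitor over sham, at 3.02.

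For vehicle against sham, 0 of the 9 genes were called by edgeR's quasi-likelihood test, beside 0.304% of all 13823 genes tested. At an unadjusted p under 0.05 there were 3, C3ar1, C5ar1 and C3, beside 8.28% of all genes, and DESeq2 called 1, C3ar1, beside 1.04% of all genes. The groups did not overlap for 2 genes that lay higher after injury and for 1 that lay lower, beside 8.2% and 8.76% of all genes. The log2 fold change was positive for 5 genes and negative for 4, with a median of 0.11, beside a median of -0.02 over all genes.

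For inhibitor against vehicle, 0 of 9 were called, beside 0.731% of all genes tested. At an unadjusted p under 0.05 there were 2, C1qc and Serping1, beside 13.4% of all genes, and DESeq2 called 0, beside 2.13%. C1qc was the only 1 of the 9 whose groups did not overlap, beside 8.44% of all genes that lay higher without overlap. The log2 fold change was positive for 8 of the 9 genes, all but C5ar1, with a median of 0.22, beside 0.04 over all genes.

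For inhibitor against sham, 1 of 9 was called, C3ar1, beside 3.95% of all genes tested in either direction and 1.27% that were called higher. At an unadjusted p under 0.05 there were 4, C3, C3ar1, C5ar1 and Cfb, beside 18% of all genes, and DESeq2 called C3ar1 alone, beside 5.86% of all genes. C3ar1 and C5ar1 lay higher without overlap, beside 11.2% of all genes. The median log2 fold change of the 9 was 0.43, beside 0.03 over all genes. The 3 comparisons share their libraries in pairs, so their values stand side by side and are not independent of each other.

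**Figure D3:**
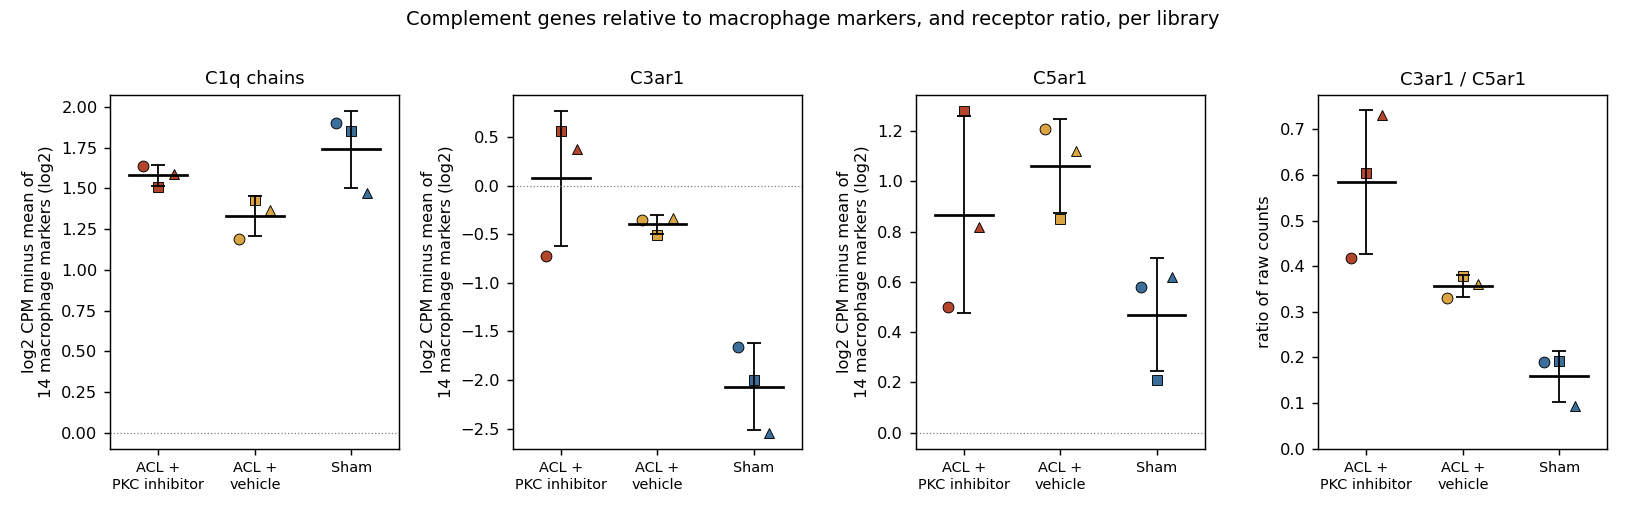
Log2 CPM of the C1q chains, C3ar1 and C5ar1 minus the mean log2 CPM of 14 macrophage and monocyte markers, and the ratio of raw counts of C3ar1 to C5ar1, in each library of the 3 groups; symbols and bars as in the plot of normalised counts. C3ar1 lies at -1.66 or lower in the sham libraries and at -0.72 or higher in the injured ones, and the ratio is highest with inhibitor, at 0.418 to 0.732.

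The receptors were also read beside macrophage markers. The summed level of 15 macrophage and monocyte markers was 1571 to 1854 normalised counts with inhibitor, 1190 to 1854 with vehicle and 1114 to 1311 in sham knees. Of the 14 tested, 1 was called higher in inhibitor than in sham knees, beside 1.27% of all genes. It was Cd68, a lysosomal protein of phagocytes, at a log2 fold change of 1.17 with an adjusted p of 0.0236. This call was lost in 5 of 17 alternatives: the fit of inhibitor and sham libraries alone and those without inhibitor library 2, inhibitor library 3, sham library 1 or sham library 2. In the other 2 comparisons, vehicle against sham and inhibitor against vehicle, edgeR's quasi-likelihood test called 0, beside 0.304% and 0.731% of all genes. At an unadjusted p under 0.05 there were 6 for inhibitor against sham, 4 for vehicle against sham and 2 for inhibitor against vehicle, beside 18%, 8.28% and 13.4% of all genes. DESeq2 called 3 (Cd14, Cd68 and Mrc1), 1 (Cd14) and 1 (Mrc1) in the same order, beside 5.86%, 1.04% and 2.13%. Cd14, a co-receptor for bacterial lipid, had 37.5, 178 and 57.1 normalised counts with inhibitor, 223, 84.4 and 172 with vehicle and 20.9, 18.3 and 17.0 in sham knees. All injured libraries lay above the sham libraries for Cd14, with log2 fold changes of 2.29 (SE 0.65) for inhibitor and 3.06 (SE 0.66) for vehicle against sham and adjusted p-values of 0.0903 and 0.152. The monocyte receptor Ccr2 gave 1.21 and 1.28 in these comparisons and the Fc receptor gene Fcgr1 gave 1.63 and 1.71, with adjusted p-values from 0.11 to 0.325. The marker Ly6c2 went the other way, at -0.47 and -0.57, with adjusted p-values of 0.455 and 0.658. Of the 14 markers, 11 had positive log2 fold changes for inhibitor against sham and 3 negative ones. For vehicle against sham 10 were positive and 4 negative. The part of these markers in the C3ar1 values was not tested. Csf1r, the receptor for the macrophage growth factor and the highest of the list, had 0.09 for inhibitor against sham and 0.24 for vehicle against sham, with adjusted p-values of 0.876 and 0.851. C3ar1 minus the mean of the markers was -0.72, 0.56 and 0.38 on the log2 scale with inhibitor, -0.35, -0.51 and -0.33 with vehicle and -1.66, -2.00 and -2.54 in sham knees. The injured libraries lay above the sham libraries on this scale too, by 2.14 on average with inhibitor and by 1.67 with vehicle. C5ar1 minus the markers averaged 0.87 ± 0.39 with inhibitor, 1.06 ± 0.19 with vehicle and 0.47 ± 0.22 in sham knees (SD, n = 3 each), and the inhibitor and sham libraries overlapped.

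C3ar1 and C5ar1 did not keep 1 ratio across the groups. For each raw count of C5ar1, C3ar1 held 0.418, 0.604 and 0.732 counts with inhibitor, 0.330, 0.378 and 0.361 with vehicle and 0.190, 0.192 and 0.0943 in sham knees. The 3 groups did not overlap on this ratio, which needs no scaling between libraries. No test was run on it. Neutrophils are the cells richest in C5ar1, and the summed level of 13 neutrophil markers was 9221 to 19540 normalised counts with inhibitor, 9308 to 11780 with vehicle and 16770 to 22800 in sham knees. Of these, 6 were called lower with inhibitor against sham, beside 2.68% of all genes, and 0 higher, beside 1.27%. The granule protein Ltf was among the 6, at -2.11 with an adjusted p of 0.00216. Ltf alone was called lower with vehicle against sham, at -1.41. In that comparison 11 of the 13 had negative log2 fold changes and 2, Cxcr2 and Csf3r, positive ones. Cxcr2 averaged 140 ± 39.0 normalised counts with vehicle and 91.4 ± 15.8 in sham knees (SD, n = 3 each). Csf3r averaged 396 ± 68.5 and 345 ± 42.0, and the groups overlapped for both genes. The part of neutrophils in the C5ar1 values was not tested.

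**Figure D4:**
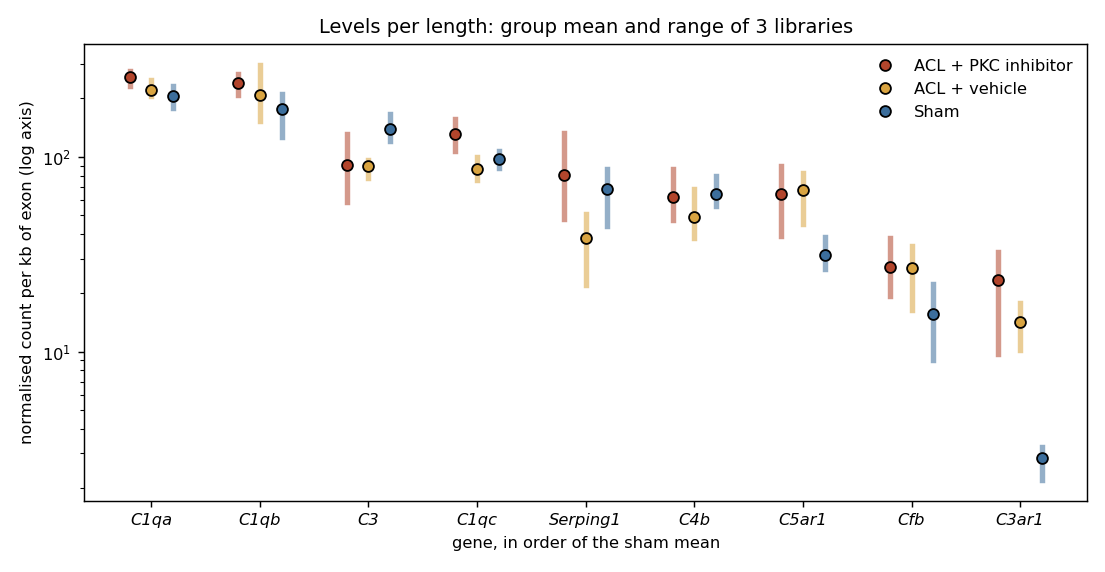
Normalised count per kb of exon (log axis) of the 9 complement genes, ordered by the sham mean; points are group means and bars the range of 3 libraries. C1qa and C1qb are the highest and C3ar1 the lowest in all 3 groups.

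Levels of different genes were compared per kb of exon. In sham knees C1qa had 205 ± 26.6 normalised counts per kb, followed by C1qb at 175 ± 43.8, C3 at 139 ± 23.7 and C1qc at 97.02 ± 9.82 (SD, n = 3). Below them came Serping1 at 68.6 ± 21.9, C4b at 64.2 ± 13.8, C5ar1 at 31.3 ± 6.64, Cfb at 15.6 ± 6.61 and C3ar1 at 2.83 ± 0.56. The ranges of neighbours in this order overlapped for C1qa and C1qb, for C1qb and C3 and for Serping1 and C4b, and no others did. In the injured groups the order was the same at both ends. C3ar1 remained the lowest per kb, at 23.4 ± 12.1 with inhibitor and 14.2 ± 3.79 with vehicle, where its range overlapped that of Cfb. C5ar1 came to 64.4 ± 25.5 with inhibitor and 67.3 ± 19.4 with vehicle, above C4b in the group means of both.

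**Figure D5:**
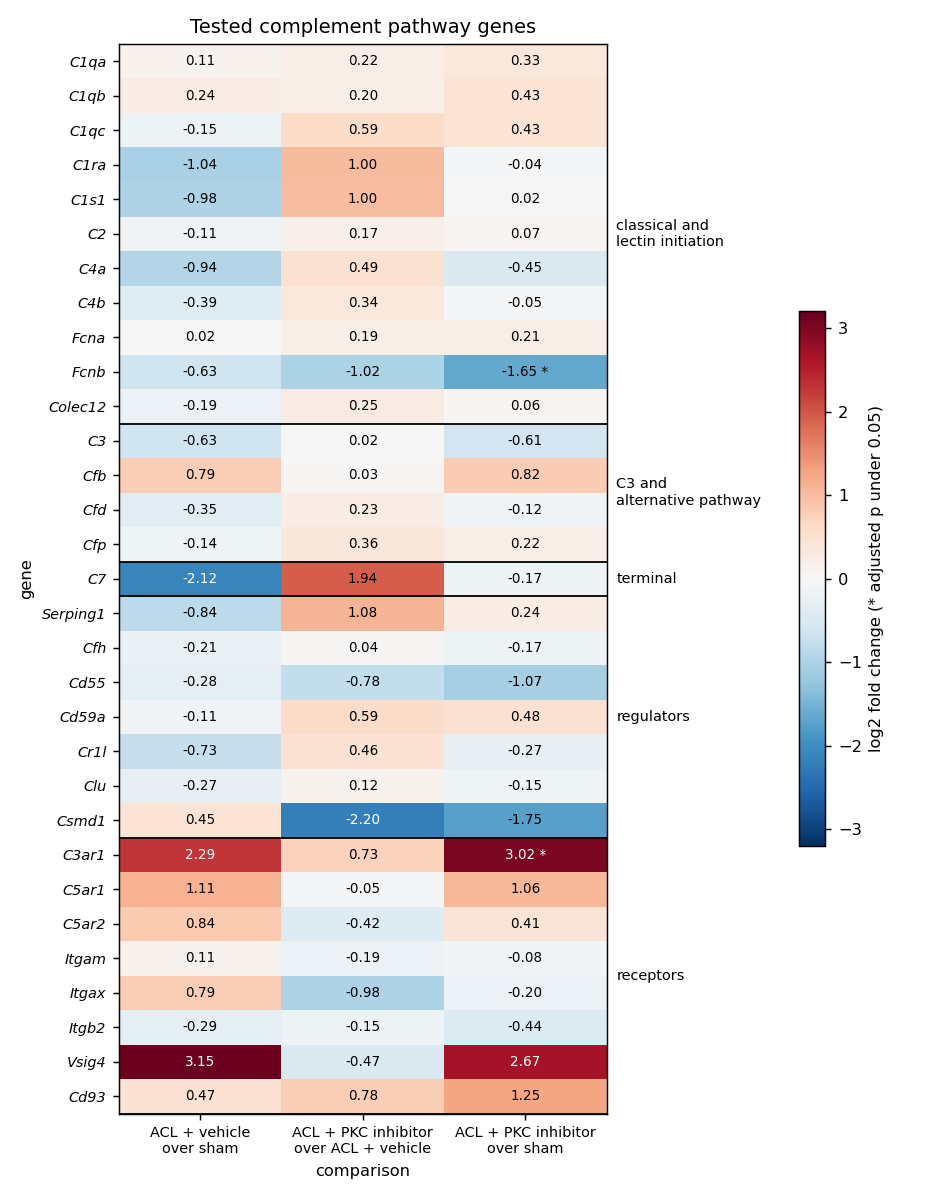
Log2 fold change (colour and printed value) of every tested complement gene in the 3 comparisons, grouped by role; an asterisk marks an adjusted p under 0.05. The asterisks stand at Fcnb, -1.65, and C3ar1, 3.02, with inhibitor over sham.

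The wider pathway was read from 5 lists of initiators, alternative route, terminal components, regulators and receptors, which add 39 genes to the 9. Of these, 22 passed the filter on low counts. With edgeR's quasi-likelihood test, 0 of the 22 were called for vehicle against sham and 0 for inhibitor against vehicle, beside 0.304% and 0.731% of all genes. At an unadjusted p under 0.05 there were 5 and 8, beside 8.28% and 13.4%. DESeq2 called 0 in each, beside 1.04% and 2.13%. Inhibitor against sham had 5 at an unadjusted p under 0.05, beside 18% of all genes, and 2 by DESeq2, Cd93 and Fcnb, beside 5.86%. There edgeR called 1, Fcnb, which encodes ficolin B, a lectin of myeloid cells that starts the lectin route. Fcnb had 30.8, 37.8 and 33.8 normalised counts with inhibitor, 41.5, 103 and 61.4 with vehicle and 84.9, 89.1 and 151 in sham knees. Every inhibitor library lay below every vehicle and every sham library, and Fcnb fell by 1.65 (SE 0.35) on the log2 scale against sham, with an adjusted p of 0.0176, beside 2.68% of all genes that were called lower. It was not called without inhibitor libraries 1 and 2, nor without sham library 3.

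Among the initiators, C1ra and C1s1 encode the proteases C1r and C1s that C1q carries. C1ra had 133, 61.2 and 125 normalised counts with inhibitor, 44.9, 55.9 and 55.9 with vehicle and 86.0, 99.6 and 139.6 in sham knees. The vehicle libraries lay below those of both other groups. The log2 fold change was -1.04 (SE 0.32) for vehicle against sham and 1.002 (SE 0.32) for inhibitor against vehicle, with adjusted p-values of 0.277 and 0.165. C1s1 gave -0.98 (SE 0.40) and 0.997 (SE 0.39) in the same comparisons, with adjusted p-values of 0.489 and 0.276.

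Of the 7 terminal components, only C7, part of the membrane attack complex, passed the filter. It had 61.5, 14.02 and 10.4 normalised counts with inhibitor, 8.31, 5.94 and 8.18 with vehicle and 30.2, 40.6 and 26.4 in sham knees. The vehicle libraries were the lowest, and inhibitor library 1 was the highest of all. C7 gave -2.12 (SE 0.67) for vehicle against sham and 1.94 (SE 0.65) for inhibitor against vehicle on the log2 scale, with adjusted p-values of 0.289 and 0.196. Without inhibitor library 1, inhibitor against vehicle came to 0.75, and vehicle against sham had an adjusted p of 0.0475.

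In the alternative route, Cfp, which encodes properdin, a protein that holds the C3-cleaving enzyme together, gave 0.36 (SE 0.25) for inhibitor against vehicle with an adjusted p of 0.561. Among the regulators, Csmd1, a large membrane protein that holds back complement, had the highest value for vehicle against sham, 0.45, and the lowest for inhibitor against vehicle, -2.20, and against sham, -1.75. None of these passed, with adjusted p-values of 0.929, 0.216 and 0.26, and Csmd1 had 98 counts in all 9 libraries together. Cd59a, which blocks the membrane attack complex on host cells, was the highest regulator for inhibitor against sham at 0.48, with an adjusted p of 0.742.

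Of the 9 receptors, which include the members C3ar1 and C5ar1, 8 were tested. For vehicle against sham 7 had positive log2 fold changes and 1 a negative value, with a median of 0.81, beside -0.02 over all genes. The groups did not overlap for 5 of the 8, C3ar1, C5ar1, C5ar2, Itgax and Vsig4, which lay higher after injury, beside the 8.2% of all genes. For C5ar2 the margin was small, between 25.9 normalised counts in the lowest vehicle library and 23.6 in the highest sham library. Vsig4 had 0, 2 and 0 raw counts in sham knees and passed the filter on low counts through injured libraries alone. Being tested thus already favoured a higher level than sham for Vsig4. C3ar1 also passed through injured libraries, so the count of 5 of the 8 is not free of that filter. Of the 22 wider genes without the 9, 3 lay higher and 4 lower without overlap, beside 8.2% and 8.76% of all genes, with a median log2 fold change of -0.20. For inhibitor against vehicle, 2 of the 8 receptors were positive and 6 negative, with a median of -0.17, beside 0.04 over all genes. For inhibitor against sham 5 were positive and 3 negative, with a median of 0.74, beside 0.03 over all genes. In that comparison 3 of the 8 lay higher without overlap, beside 11.2% of all genes. Vsig4, a receptor of tissue macrophages for C3 fragments, had 20 raw counts with vehicle and 2 in sham knees, a ratio of 9.89 after scaling with a 95% counting interval from 2.40 to 87.3. With inhibitor it had 34 counts, a ratio to sham of 7.84 with an interval from 2.01 to 67.3, and the intervals cover counting error only. Itgax, an integrin chain of complement receptor CR4, was the lowest for inhibitor against vehicle at -0.98, with an adjusted p of 0.273. Cd93, once described as a C1q receptor and carried by endothelial and myeloid cells, was the highest there at 0.78, with an adjusted p of 0.316, and came to 0.23 without inhibitor library 1. The integrin chain Itgb2 was the lowest of the list for vehicle against sham, at -0.29, and for inhibitor against sham, at -0.44, with adjusted p-values of 0.883 and 0.537.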

How the data were processed

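The deposited values are raw read counts per gene name, made by the authors with featureCounts 2.0.1 from reverse-stranded read pairs over GENCODE M25 exons, per the file headers, which also set reads at several places or over several genes to count in full for each. HISAT2 and mm10 are named in the submitters' processing notes. Columns were given to samples by name alone. Tables with 27 further columns, whose codes match no sample label, were not used. The members and lists were chosen with earlier results of these data known. edgeR 4.0.16 in R 4.3.3 (filterByExpr, TMM, robust quasi-likelihood, a mean per group) was run on the counts of 9 libraries and tested on simulated data, and DESeq2 1.42.0 was an alternative, with other scaling, no filter, protein-coding genes alone, the compared groups alone, a replicate block and each library left out. Named are all 9 members, wider genes past the threshold, and the highest and lowest of each list in each comparison. Marker genes are named if past the threshold or highest in their list. Acan, Alb, Fgb, Cd14, Ccr2, Fcgr1, Ly6c2, Mrc1, Cxcr2, Csf3r and C5ar2 were chosen after their values were seen. Also named are the 3 genes most alike each member. A result for a marker gene is not reported here. SEs are the log2 fold change over the square root of F. Of the 9 members, 5 had a RefSeq promoter. p-values measure the spread between the labelled biological replicates.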

Additional observations from a re-analysis of the deposited data

How the results depend on the processing

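Over the 9 genes, 3 comparisons and 17 alternatives, 424 of 459 log2 fold changes kept their direction and side of the threshold, 15 passed it newly, 0 lost it and 20 changed sign. C3ar1 in inhibitor against sham was called in all 17, with adjusted p-values from 5.28e-12 to 0.0272. C3ar1 in vehicle against sham was called in 6 of 17 (7.72e-06 to 0.304) and C5ar1 in 4 (0.00527 to 0.668). Members called for vehicle against sham numbered 1 with DESeq2, and 2 with no filter, with the compared groups alone or without inhibitor libraries 1 and 2, against 0, and 0 to 2 with 1 library left out. For inhibitor against vehicle no filter gave 1, Serping1, and leaving out 1 library gave 0. For inhibitor against sham, no filter and leaving out inhibitor libraries 1 and 2 gave 2 each, and leaving out 1 library gave 1 to 3. Wider genes called for vehicle against sham numbered 1, C7, with no filter, with the compared groups alone or without inhibitor libraries 1 and 2, and 0 to 1 with 1 library left out. Without the filter 4 were called for inhibitor against vehicle (C1ra, C1s1, C7 and Cd93) and 3 for inhibitor against sham (Cd55, Cd93 and Fcnb). For inhibitor against sham DESeq2 gave 2, leaving out inhibitor libraries 1 and 2 gave 0, and leaving out 1 library gave 0 to 2. All genes called for vehicle against sham, 42, came to 149 with DESeq2, 262 with no filter, 291 with the compared groups alone, 301 without inhibitor libraries 1 and 2 and 1 to 234 with 1 library left out. For inhibitor against vehicle, 101 came to 316, 554, 3, 20 and 0 to 256 in the same order, and for inhibitor against sham 546 came to 841, 1056, 198, 174 and 141 to 841. Fewer samples enter the last settings, yet calls for vehicle against sham rose in some of them. They came to 234 without inhibitor library 1, 86 without inhibitor library 2 and 36 without inhibitor library 3. The causes of these moves were not tested.

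Signs changed for genes whose reported log2 fold change lay between -0.05 and 0.24. With 1 library left out, C1qb ran from -0.12 to 0.44 for vehicle against sham. For inhibitor against vehicle C3 ran from -0.32 to 0.25, Cfb from -0.33 to 0.24 and C5ar1 from -0.41 to 0.22, and for inhibitor against sham C4b ran from -0.38 to 0.13 and Serping1 from -0.31 to 0.49. Without inhibitor libraries 1 and 2, C3 was -0.63 and Cfb -0.17 against vehicle and Serping1 -0.49 against sham. With no filter, C5ar1 against vehicle and C4b against sham came to 0. The C1q level beside Csf1r and Adgre1 alone was -0.19 for vehicle against sham. Replicate numbers did not pair the samples: same-numbered libraries correlated at -0.241 to 0.069 in their deviations from group means. With the replicate block, 24 genes were called for vehicle against sham, C3 was -0.01 and Cfb -0.05 for inhibitor against vehicle, and no call of a member changed. Leaving out Nemf, with 1177819 counts in sham 1 and at most 195 elsewhere, was chosen after seeing the data and changed no call of a member. The 27 counts of C3ar1 in sham knees limit the precision of its folds.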

Other observations

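Cell markers moved beside the complement genes in inhibitor against sham knees. Among the B lineage markers, the receptor chains Cd79a (log2 fold change -1.66) and Cd79b (-1.68) and the surface protein Cd22 (-2.37) fell, with adjusted p-values of 0.0334, 0.045 and 0.00617. Cd22 also fell by 2.29 on the log2 scale against vehicle, with an adjusted p of 0.0233. Of 13 neutrophil markers, the granule genes Ngp (-1.24), Camp (-1.44), Ltf (-2.11), Mmp9 (-1.06), Elane (-1.40) and Mpo (-1.70) fell. The cartilage genes Col2a1 (-2.67) and Comp (-1.25) fell among 7 joint tissue markers, and Pi16 (-1.26) among 10 fibroblast markers, beside 2.68% of all genes called lower. With edgeR's quasi-likelihood test, 0 of the muscle, adipocyte, mast cell and hepatocyte markers tested passed. The highest genes of the other lists gave, for inhibitor against sham, -0.30 for the neutrophil gene S100a8, -1.06 for the mast cell receptor Kit, 1.53 for the muscle gene Ttn, -0.27 for the B lineage factor Ebf1, -1.89 for Serpina1a, 0.63 for the fat cell gene Fabp4 and -1.45 for the collagen gene Col1a1, and none passed. Inhibitor library 1 held the highest muscle and adipocyte levels, and the part of these markers in the complement values was not tested.

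Genes whose log2 CPM ran most alike to the receptors over the 9 libraries were, among 138 genes with a mean log2 CPM of at least 3, Fth1, Rpl41 and Rps2 for C3ar1 (Pearson's r of 0.962, 0.916 and 0.91) and Pkm, Fth1 and Rpl12 for C5ar1 (0.907, 0.886 and 0.868). The same 3 ranks held Rpl41, Vim and Ftl1 for C1qa (0.743 to 0.73), Actb, Gm22133 and Ftl1 for C1qb (0.744 to 0.686) and Rpl3, Ybx1 and Eef1a1 for C1qc (0.749 to 0.702). They held the muscle genes Acta1, Myh4 and Tpm1 for C3 (0.776 to 0.697), Aldoa, Acta1 and Myh4 for C4b (0.83 to 0.745), Ftl1, Fth1 and Rpl12 for Cfb (0.901 to 0.836) and Eef2, Aldoa and Gm10222 for Serping1 (0.859 to 0.782). With a floor of 50 mean normalised counts, chosen after seeing the data, 7798 genes were compared and the first in rank were Gm20390 for C3ar1 (0.996), Tgfbi for C5ar1 (0.97), Tia1 for C3 (0.973) and, for Cfb, Gm20547 (0.985), with which it shares exons. These correlations are descriptions over libraries that share depth and composition.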
